A study of Mus musculus with 14 samples.

Results

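The tumour-free baseline of this experiment is held by 4 of its 14 microarrays, those titled Matrigel 1, Matrigel 2, Matrigel 3 and Matrigel 4. All 4 were taken as labelled, with no choice by measured values, and every probe set that is not an array control was used. The cells were bone marrow cells (BMCs) sorted as Sca1-positive and cKit-negative from mice that carried Matrigel, a basement membrane extract, in place of a tumour. The other 10 arrays profiled the same sort from mice carrying a BPLER tumour, labelled as instigating (Instigator, n = 5), or a PC3 tumour of matched size, labelled as non-instigating (Non-instigator, n = 5). BPLER is a line of transformed human mammary epithelial cells, and PC3 is a human prostate cancer line. The labels give no genotype, strain, sex or age of the hosts for any group, so which lymphoid cells the hosts still had is read here only from marker genes. The labels also do not say that the 4 arrays come from 4 animals, so their spread, and every p-value below, describes these samples and may be technical. The title and the description of Instigator 5 differ in the tumour they name, and the title was followed.

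Sca1, encoded by Ly6a, is a surface antigen of mouse stem and progenitor cells that mature lymphocytes, plasmacytoid dendritic cells and some stromal cells also carry. cKit, encoded by Kit, is the stem cell factor receptor of stem cells, progenitors and mast cells, and is lost as most marrow cells mature. A Sca1-positive, cKit-negative sort can therefore hold several differentiated lineages. Bulk RNA measures them together, so a low marker level cannot tell fewer cells of a type from less RNA per cell.

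Levels are log2 of the deposited RMA intensity, on which a difference of 1 is a 2-fold difference. The table held 22626 probe sets after the 64 array controls were set aside, and their mean over the 4 Matrigel arrays ran from 3.26 to 13.75 with a median of 7.04. Each of 12393 genes was represented by its brightest probe set. RMA values carry no detection call, so 48 measured genes restricted to tissues outside the marrow, such as those of sperm, liver, retina and pituitary, served as a low-signal reference. Their levels ran from 3.90 to 9.01 around a median of 5.55. The highest was Prm1, of sperm, whose dimmer probe sets had means of 4.70 and 4.37. The 95th percentile of the reference genes, 7.01, was used as the reference level. Of the 12393 genes, 6935 (56%) had a Matrigel mean above it. With the same percentile taken on each array by itself, 6406 of all genes were above that array's level on all 4 arrays and 4866 on none. That share of 56% is the background for each count of markers above the reference level given below. A rank or percentile here orders brightness among probe sets or genes. Probe sets differ in how strongly they bind their target, so it does not order RNA amounts.

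Ribosomal protein genes were the brightest group, with 14 of the 25 brightest genes and 32 of the brightest 100. Rplp2, of the large ribosomal subunit, read 13.60, 13.75, 13.71 and 13.70 on Matrigel 1 to 4. Lgals1, the beta-galactoside-binding galectin 1, read 13.61, 13.64, 13.69 and 13.65. These 2 genes varied by less than 0.2 between arrays. S100a9, a subunit of the calprotectin of neutrophils, was at rank 5 of the 22626 probe sets. Igk and Ighm, the immunoglobulin kappa and mu genes, and Mpo, the myeloperoxidase of neutrophil granules, were also among the 25 brightest genes. Of the 100 brightest genes, 12 were members of the marker lists, and 97 were among the brightest 100 without Matrigel 3 as well.

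Of the surface antigens of the sort, only cKit could be looked at, through Kit. Kit read 8.05, 7.41, 7.44 and 7.18 on Matrigel 1 to 4, with a brightness rank of 9601. All 4 values lay above the reference level of 7.01, with Matrigel 1 the highest. A dimmer probe set of Kit read 5.52, 5.02, 5.28 and 4.75, below it on all 4 arrays. No probe set is named for Ly6a alone, so Sca1 itself was not analysed here. Cd34, a sialomucin of progenitors and endothelium, read 8.79, 8.13, 8.55 and 8.36, all above the reference level. Of the 19 stem and progenitor genes measured, 8 were above it, and their median percentile among all genes was 37.5. Besides Kit and Cd34, those above it were Cd48 (10.68), Gata2 (8.47), Flt3 (7.95), Mycn (7.95), Hoxa9 (7.86) and Gfi1b (7.72). The transcription factors Meis1 and Mecom and the receptor Tek had means of 4.65, 4.70 and 4.43, well below the reference level.

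**Figure D1:**
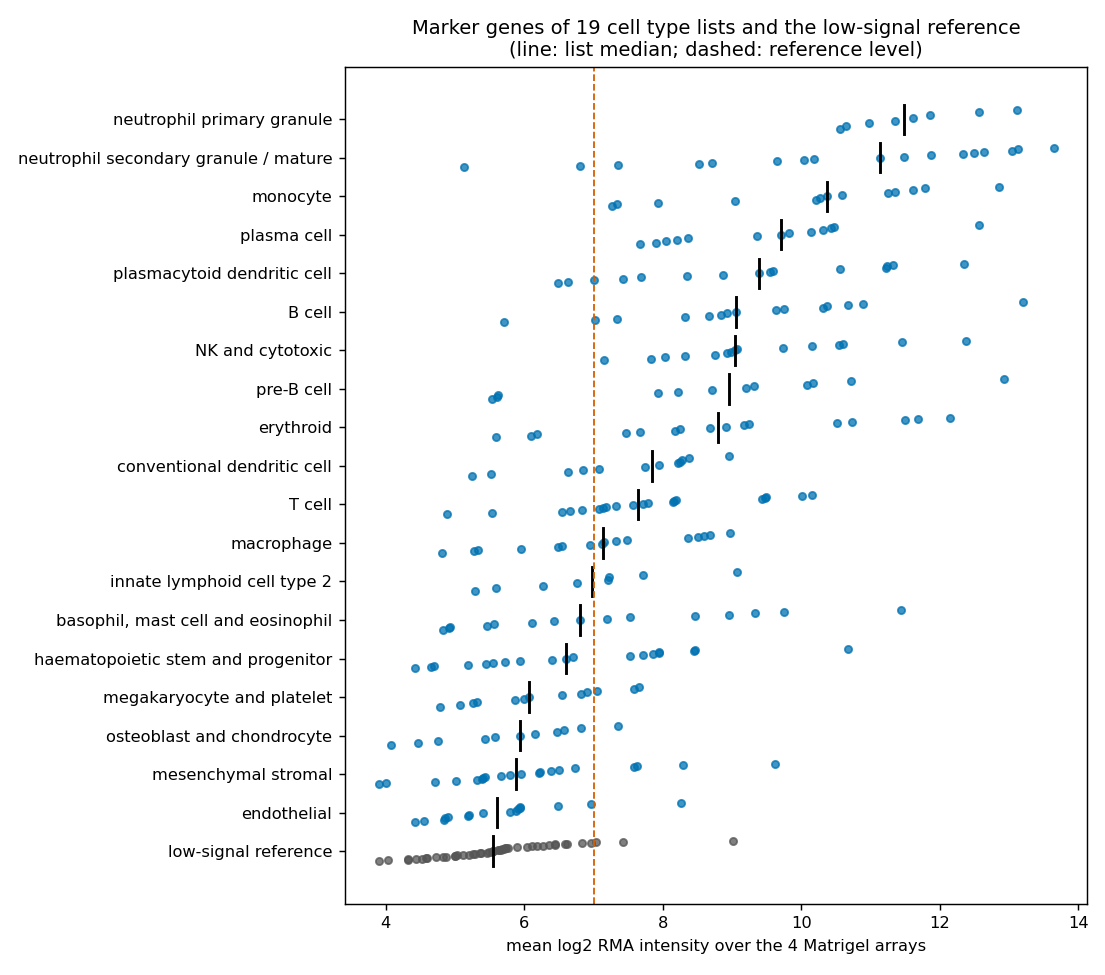
Mean log2 RMA intensity over the 4 Matrigel arrays of each measured gene in 19 cell type lists and in the low-signal reference list, with lists ordered by their median (bar) and the reference level of 7.01 dashed. The primary granule list lay wholly above the reference level, while 15 of 16 endothelial genes and 10 of 11 osteoblast and chondrocyte genes lay below it.

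Neutrophil granule genes had the highest median percentiles of the 19 cell type lists. All 8 measured genes of the primary granule list were above the reference level, with a median percentile of 97.1. The list is named for the granules made at the promyelocyte stage, and not all its members encode granule proteins. Elane, Prtn3, Ctsg and Mpo encode the proteases neutrophil elastase, proteinase 3 and cathepsin G and the enzyme myeloperoxidase. Together with Ms4a3, a membrane protein of myeloid progenitors, and Gstm1, a glutathione transferase, they are the 6 list genes with a RefSeq promoter window. All 6 genes were lowest on Matrigel 2. Their promoters are shown because they have such a window. Each is the stretch of 250 bases before the RefSeq start on the gene's strand, build GRCm38.p6. Capitals mark GAGGAA, the core bound by PU.1 and other ETS factors, or TTNNGNAA, a pattern of C/EBP sites.
Mpo: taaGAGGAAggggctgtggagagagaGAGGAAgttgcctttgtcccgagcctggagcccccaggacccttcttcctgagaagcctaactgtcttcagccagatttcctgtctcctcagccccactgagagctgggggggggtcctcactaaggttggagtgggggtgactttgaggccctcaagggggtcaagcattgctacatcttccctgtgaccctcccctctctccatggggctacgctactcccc
Elane: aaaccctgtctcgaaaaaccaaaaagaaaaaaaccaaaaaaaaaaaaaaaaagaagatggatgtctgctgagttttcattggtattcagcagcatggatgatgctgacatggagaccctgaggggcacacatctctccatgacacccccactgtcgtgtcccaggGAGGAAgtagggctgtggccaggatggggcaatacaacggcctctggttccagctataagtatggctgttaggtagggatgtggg
Prtn3: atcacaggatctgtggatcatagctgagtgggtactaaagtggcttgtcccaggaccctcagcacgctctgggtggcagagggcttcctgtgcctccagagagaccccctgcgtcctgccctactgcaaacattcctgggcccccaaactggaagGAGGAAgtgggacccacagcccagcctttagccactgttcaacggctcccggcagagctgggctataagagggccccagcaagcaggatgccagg
Ctsg: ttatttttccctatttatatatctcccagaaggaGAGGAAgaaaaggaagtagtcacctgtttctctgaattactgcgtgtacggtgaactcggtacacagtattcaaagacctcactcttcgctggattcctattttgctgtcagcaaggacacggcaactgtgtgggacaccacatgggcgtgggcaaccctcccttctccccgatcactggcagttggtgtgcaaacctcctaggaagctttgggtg
Ms4a3: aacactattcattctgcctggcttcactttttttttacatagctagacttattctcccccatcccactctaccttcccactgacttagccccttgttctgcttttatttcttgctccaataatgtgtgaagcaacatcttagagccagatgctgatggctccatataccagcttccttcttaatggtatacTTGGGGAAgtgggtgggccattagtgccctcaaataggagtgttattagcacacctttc
Gstm1: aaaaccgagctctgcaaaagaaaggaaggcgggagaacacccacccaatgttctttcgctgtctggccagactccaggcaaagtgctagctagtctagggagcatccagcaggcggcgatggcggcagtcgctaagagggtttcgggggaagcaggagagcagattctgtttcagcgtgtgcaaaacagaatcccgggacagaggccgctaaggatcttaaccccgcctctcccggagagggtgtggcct

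These windows lie at chr11:87793534-87793783 on the plus strand, chr10:79886062-79886311 on the plus strand, chr10:79879417-79879666 on the plus strand, and at chr14:56102575-56102824, chr19:11640852-11641101 and chr3:108017974-108018223 on the minus strand. GAGGAA, searched on both strands, occurred in 4 of the 6, with 2 matches for Mpo and 1 each for Elane, Prtn3 and Ctsg. Over all 27025 genes with a window, 23.1% held it. TTNNGNAA, also searched on both strands, occurred in 1 of the 6, Ms4a3, against 36.9% of all windows, and none of the 6 held both. Gstm1 held neither. A match describes these letters and is not a measured binding site.

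Mpo read 13.24, 12.93, 13.26 and 13.04 on Matrigel 1 to 4. Ctsg read 12.66, 12.17, 12.74 and 12.71. Prtn3 read 12.06, 11.36, 11.96 and 12.05. In each of these 3 genes Matrigel 2 was lowest. Elane read 11.74, 11.22, 11.58 and 11.94, again lowest on Matrigel 2 and highest on Matrigel 4. Ms4a3 read 11.05, 10.47, 10.99 and 11.37. Gstm1 read 10.71, 9.94, 10.65 and 10.93, in the same order of arrays as Elane and Ms4a3. Over the list, Matrigel 2 was lowest in 7 of 8 genes, against 24.7% of all genes. The list mean was 11.67, 11.26, 11.63 and 11.78.

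Genes of the later, secondary granules and of mature neutrophils were also bright, with 15 of 17 above the reference level and a median percentile of 95.7. S100a9 read 13.68, 13.61, 13.74 and 13.52, and S100a8, its partner subunit, read 13.26, 13.22, 12.96 and 13.07. Camp, the cathelicidin precursor, read 12.88, 13.29, 12.86 and 13.17. Camp was highest on Matrigel 2, where the primary granule genes were lowest. Ltf, the iron-binding lactoferrin, read 11.22 on Matrigel 3 and lay between that and 12.22, its value on Matrigel 2, on the others. Mmp9, gelatinase B of tertiary granules, read 11.58, 11.48, 10.59 and 10.91. Both were lowest on Matrigel 3. Across the 17 genes, Matrigel 2 was highest in 11 and Matrigel 3 lowest in 12. Over all genes those shares were 13.9% and 21.4%. Trem1, an activating receptor of neutrophils, and Il1r2, the decoy receptor for interleukin 1, had means of 5.13 and 6.80, below the reference level.

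All 13 monocyte genes measured were above the reference level, with a median percentile of 90.8. Lyz2, the lysozyme of myeloid cells, read 12.78, 12.90, 12.77 and 12.98. F13a1, coagulation factor XIII subunit A of monocytes, read 11.68, 11.58, 11.95 and 11.95. Csf1r, the receptor for macrophage colony-stimulating factor, read 10.25, 9.84, 10.44 and 10.28, lowest on Matrigel 2. Cx3cr1, the fractalkine receptor, was the dimmest of the list at a mean of 7.27. Macrophage genes were dimmer, with 9 of 16 above the reference level and a median percentile of 45.9, near the background. Among them C1qb, of the first complement component, read 8.83, 9.02, 9.04 and 8.98, while its partners C1qa and C1qc had means of 6.54 and 5.96. Adgre1, the F4/80 antigen, read 6.75, 6.63, 8.11 and 7.15, so only Matrigel 3 stood more than 0.2 above the reference level. Without Matrigel 3, the number of macrophage genes above it was 7.

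Genes of plasmacytoid dendritic cells, the marrow-derived producers of type I interferon, were above the reference level in 12 of 15 cases, with a median percentile of 81.0. Tcf4, the E protein that sets this fate, read 11.35, 11.36, 11.26 and 10.99. Spib, an ETS factor of these cells and of B cells, read 11.07, 11.71, 11.02 and 11.06. Bst2, the antigen tetherin, read 9.43, 9.79, 9.61 and 9.39. Spib stood apart on Matrigel 2, and Bst2 was highest there by a smaller margin. Ccr9, a homing receptor for gut and thymus, read 7.97, 8.85, 8.44 and 8.12. Matrigel 2 was highest in 10 of the 15 genes, against 13.9% of all genes. Tlr9, Lag3 and Pacsin1 did not pass the reference level. Conventional dendritic cell genes had 8 of 12 above it and a median percentile of 57.4, with Xcr1, Batf3 and Zbtb46, which mark or specify these cells, at means of 5.25, 5.53 and 6.63.

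MHC class II genes, which present antigen in dendritic and B cells, were above the reference level in 6 of 8 cases. Cd74, the invariant chain, read 11.89, 12.18, 12.22 and 11.84. H2-Aa, a class II alpha chain, read 11.38, 11.73, 11.57 and 11.12. Both were lowest on Matrigel 4. Their transactivator Ciita had a mean of 6.43, below the reference level.

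B-lineage genes were present from the pre-B to the plasma cell stage. Of the 15 B cell genes 14 were above the reference level, with a median percentile of 76.4, and Pax5, the B-lineage factor, was the exception at 5.70. Cd79b, a signalling chain of the B cell receptor, read 10.75, 10.92, 10.66 and 10.35. Ms4a1, the CD20 antigen, read 10.12, 10.67, 10.76 and 9.94. Matrigel 4 was lowest in both, and in 11 of the 15 genes, against 22.8% of all genes. Of 12 pre-B cell genes 9 were above the reference level. Dntt, the terminal transferase that adds bases at V(D)J joints, read 11.13, 10.89, 10.67 and 10.20. Vpreb1, of the surrogate light chain, read 9.78, 9.39, 9.12 and 8.99. Both were highest on Matrigel 1 and lowest on Matrigel 4. Igll1, the other surrogate light chain gene, read 10.06, 9.92, 10.75 and 9.94, but a dimmer probe set read 8.83, 8.64, 8.38 and 8.33, so the 2 disagreed on whether Matrigel 3 was high. Rag1, of the recombinase, read 8.33, 8.48, 7.26 and 7.67. Rag2, its partner, had a mean of 5.61, below the reference level.

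All 13 plasma cell genes were above the reference level, with a median percentile of 84.6. Jchain, which joins secreted IgA and IgM, read 12.45, 12.50, 12.86 and 12.47. Sdc1, the CD138 antigen, read 10.53, 10.23, 10.93 and 10.18. Both were highest on Matrigel 3. Creld2, a chaperone of the endoplasmic reticulum, read 9.76, 9.77, 10.82 and 10.21. Fkbp11, a prolyl isomerase of secretory cells, read 7.70, 7.35, 8.56 and 7.99. Matrigel 3 was highest in 10 of the 13 genes, against 53.7% of all genes. Xbp1, the factor of the secretory programme, read 10.31, 10.22, 10.58 and 10.62 and was highest on Matrigel 4 instead.

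Immunoglobulin genes were among the most variable between the 4 arrays. The 19 immunoglobulin genes measured form a group chosen after the values were seen, 17 of them were above the reference level, and 6 had an SD over 0.5. Over all 12393 genes, 282 had such an SD. Ighg3, the constant region of IgG3, read 9.39, 7.05, 11.05 and 10.49, a range of 4.01. A dimmer Ighg3 probe set read 7.62, 7.79, 8.14 and 7.96 and did not show that range. Igha, the constant region of IgA, read 11.51, 12.78, 12.43 and 13.20, lowest on Matrigel 1. All 3 Igha probe sets gave the same order of arrays. The kappa variable gene Igkv6-20 read 7.94, 6.98, 10.30 and 8.09, highest on Matrigel 3. Igkv4-72 read 8.71, 8.89, 10.65 and 9.03, also highest there. The lambda variable gene Iglv1 read 11.40, 11.37, 12.62 and 11.72, against 8.23 to 11.72 on the 10 tumour arrays. On the tumour arrays Ighg3 ran from 7.16 to 11.12, Igha from 11.39 to 13.21 and Igkv6-20 from 5.70 to 10.59.

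Ighm showed a different pattern by probe set. Its brightest probe set read 13.37, 13.11, 13.18 and 13.15, nearly level. Of its 9 probe sets above the reference level, 6 were lower on Matrigel 2 than the mean of the other 3 arrays by over 1. The one with the largest such difference read 12.14, 9.63, 11.99 and 12.01, where Matrigel 2 differed by -2.41. Another read 13.20, 11.49, 13.08 and 13.10. On 4 of the 9, Matrigel 2 was below every other array of the series. The brightest Igk probe set was likewise level at 13.53, 13.48, 13.51 and 13.41, while another read 11.42, 9.08, 10.62 and 11.02. These probe sets carry the same gene symbol in the annotation, and which transcript each one binds was not tested. Signals of similar immunoglobulin genes cannot be separated by symbol, so these values belong to probe sets and not to single antibody genes.

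**Figure D2:**
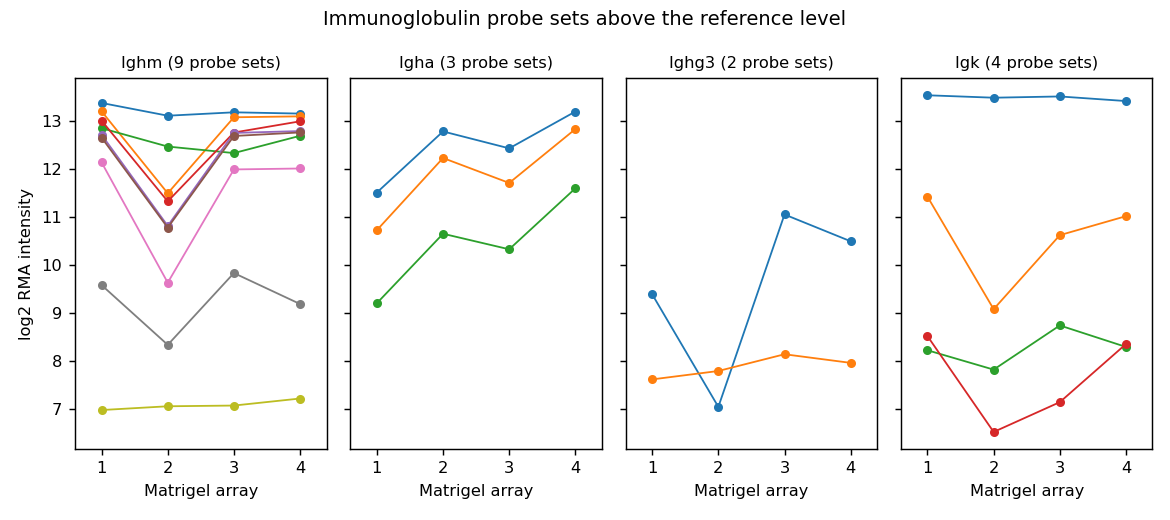
Log2 RMA intensity on each Matrigel array of the probe sets above the reference level for Ighm (9), Igha (3), Ighg3 (2) and Igk (4), with lines joining the values of 1 probe set only as a guide, since the arrays have no order. 6 Ighm probe sets dip on Matrigel 2 while the brightest Ighm and Igk probe sets are level, and the 3 Igha probe sets keep 1 order of arrays.

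T cell genes were dimmer, with 15 of 20 above the reference level and a median percentile of 53.9. Cd3d and Cd3e, chains of the T cell receptor complex, read 9.77, 10.27, 10.20 and 9.79, and 9.45, 9.80, 9.45 and 9.21. Cd4, the helper coreceptor, read 7.39, 8.06, 8.17 and 7.51. Cd8a, the cytotoxic coreceptor, read 8.04, 8.13, 8.40 and 8.21. Every one of these values lay above the reference level. Bcl11b, Lef1 and Trat1, of the T lineage, had means of 6.66, 5.54 and 4.88.

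All 15 NK and cytotoxic genes measured were above the reference level, with a median percentile of 76.3. Gzma, granzyme A of cytotoxic granules, read 12.36, 12.42, 12.23 and 12.53. Ncr1, the NKp46 receptor of NK cells, read 10.14, 10.48, 10.08 and 9.91. Gzma varied least of these, and Ncr1 was highest on Matrigel 2. Klrk1, the activating receptor NKG2D, read 8.55, 9.99, 9.12 and 8.30. The median percentile of the list was 83.5 on Matrigel 2 and 73.8 to 74.3 on the other 3. Of the 8 genes of type 2 innate lymphoid cells, another Sca1-positive lineage, 4 were above the reference level, and the cytokines Il5 and Il13 had means of 5.30 and 5.59.

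Eosinophil, basophil and mast cell genes split into bright and dim members, with 7 of 15 above the reference level. Prg2, the eosinophil major basic protein, read 10.92, 12.16, 10.86 and 11.79. Epx, the eosinophil peroxidase, read 9.54, 10.44, 9.02 and 10.02. Prg3, the related proteoglycan 3, read 7.84, 9.34, 7.82 and 8.84. In all 3 Matrigel 2 was highest, then Matrigel 4. Ear3, a ribonuclease named for eosinophils and outside the list, read 10.51, 12.63, 12.02 and 12.05. The basophil protease Mcpt8 did not follow that order and read 9.43, 9.16, 9.06 and 9.67. Hdc, which makes histamine, read 9.12, 9.11, 8.42 and 9.16. Matrigel 3 was lowest in 10 of the 15 genes, against 21.4% of all genes. Siglecf, Il5ra and Ccr3, receptors of eosinophils, had means of 6.81, 5.57 and 4.83, below the reference level. The mast cell genes Cpa3, Tpsb2, Ms4a2 and Fcer1a did not pass the reference level. Cma1, also of mast cells, passed it narrowly with a mean of 7.20.

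Of 16 erythroid genes 13 were above the reference level, with a median percentile of 72.6. Tfrc, the transferrin receptor, which all dividing cells use, read 12.08, 12.23, 12.27 and 12.01. Slc4a1, the red cell anion exchanger band 3, read 11.57, 11.66, 11.69 and 11.05. Alas2, the erythroid enzyme that starts haem synthesis, read 11.00, 10.91, 10.39 and 10.64. Matrigel 4 was lowest in Slc4a1 and Matrigel 3 in Alas2. Hba-a1, an alpha globin, had a mean of 5.60, and Epor, the erythropoietin receptor, 6.10, both below the reference level.

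Genes of stromal, bone and endothelial cells and of megakaryocytes were mostly dim. Of 16 endothelial genes 1 was above the reference level, Egfl7 at 8.02, 8.23, 8.40 and 8.40, while Cdh5, Kdr, Tie1 and Tek, which define endothelium, were below it. Of 11 osteoblast and chondrocyte genes 1 was above it, Omd, with a mean of 7.35. Of 20 mesenchymal stromal genes 4 were above it. Sparc, a matrix glycoprotein, read 8.24, 7.99, 8.54 and 8.41, and Cxcl12, the chemokine that holds cells in the marrow, read 7.51, 6.96, 8.27 and 7.57. Both were highest on Matrigel 3, as were 13 of the 20 genes, against 53.7% of all genes. Igfbp4 and Pdgfrb, the latter also used to define stroma, were above the reference level too, with means of 9.62 and 7.63. Pdgfra, Lepr, Lum and Col1a2, used to define marrow stroma, had means of 4.72, 5.32, 3.90 and 5.44, below that level. Of 13 megakaryocyte and platelet genes 3 were above the reference level, among them Pf4, platelet factor 4, at 7.48, 7.38, 7.99 and 7.78.

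Cell division genes were bright, with 19 of 20 above the reference level and a median percentile of 90.4. Mki67, the Ki-67 antigen, read 11.43, 11.60, 11.62 and 11.58. Rrm2, of ribonucleotide reductase, read 12.05, 11.79, 12.26 and 11.82. Mki67 varied little, and Rrm2 was highest on Matrigel 3. Tyms, thymidylate synthase, was the exception with a mean of 5.76. Among 16 homing and egress receptors 12 were above the reference level. Cxcr4, the receptor for Cxcl12, read 12.15, 12.01, 12.22 and 11.97 while S1pr1, which guides lymphocytes out of tissue, had a mean of 6.58.

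Of 24 secreted growth factors and cytokines 13 were above the reference level (54.2%, beside the background of 56%). Grn, the growth factor granulin, read 10.66, 10.48, 10.19 and 10.50, lowest on Matrigel 3. Slpi, a secreted inhibitor of neutrophil proteases, read 11.38, 11.01, 11.39 and 11.30, lowest on Matrigel 2. Il6, Cxcl2, Fgf2 and Hgf had means of 3.73, 3.92, 4.85 and 5.14. Type I interferon response genes were above the reference level in 10 of 13 cases. Rsad2, the antiviral enzyme viperin, read 11.15, 11.06, 10.24 and 10.88, lowest on Matrigel 3. Immediate early genes, which respond quickly to stimulation, were above it in 9 of 14 cases. Dusp1, a phosphatase of that group, read 10.53, 9.70, 9.30 and 9.43, highest on Matrigel 1, whereas Fos, the transcription factor, read 8.24, 7.63, 8.02 and 8.12.

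Xist, the non-coding RNA of the inactive X chromosome, read 11.99, 11.97, 12.25 and 11.92. The Y-linked genes Kdm5d, Uty and Eif2s3y had means of 5.04, 4.63 and 3.89, below the reference level. The 4 arrays did not differ in this pattern.

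The spread between the 4 arrays rested largely on Matrigel 3. The median SD of a probe set was 0.196 over 4 arrays and 0.119 without Matrigel 3. It was 0.198, 0.206 and 0.203 without Matrigel 1, 2 or 4. For comparison, the median SD was 0.127 in the Non-instigator arrays and 0.177 in the Instigator arrays, or 0.128 without Instigator 4. The 3 pairs of Matrigel arrays that exclude Matrigel 3 had median absolute differences of 0.127 to 0.153, and the 3 pairs that include it had 0.286 to 0.293. An SD over 0.5 was seen in 683 probe sets (3.02%) over 4 arrays and in 212 (0.937%) without Matrigel 3. An SD over 1 was seen in 21 and 24 probe sets, so that count did not fall without it.

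Matrigel 3 was the highest of the 4 arrays in 54.6% of probe sets and the lowest in 20.9%. Its median level was 7.18, against 6.98 to 6.99 on the other 3. The difference from the mean of the other 3 had a median of 0.24 in the dimmest and 0.04 in the brightest of 10 equal groups of probe sets. For beta-actin, the 5' control probe set minus the 3' one came to -0.73 on Matrigel 3 and to -0.55 to -0.51 on the other 3. Instigator 1 and Instigator 2 were lower than Matrigel 3, at -0.77 and -0.815. For Gapdh the same subtraction came to -0.92 on Matrigel 3 and to -1.05 to -0.73 on the other Matrigel arrays. The transferrin receptor control gave -2.63, -2.30, -2.62 and -2.21 on Matrigel 1 to 4. After quantile normalization of the arrays, the median SD was 0.177 with Matrigel 3 and 0.112 without it, so the larger spread with that array was still seen at a common scale. The part of RNA quality in it was not tested. The order of levels was nearly the same with and without Matrigel 3, with Spearman's rho of 0.999 over the 22626 probe sets, which share 3 of the 4 arrays and are not independent.

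**Figure D3:**
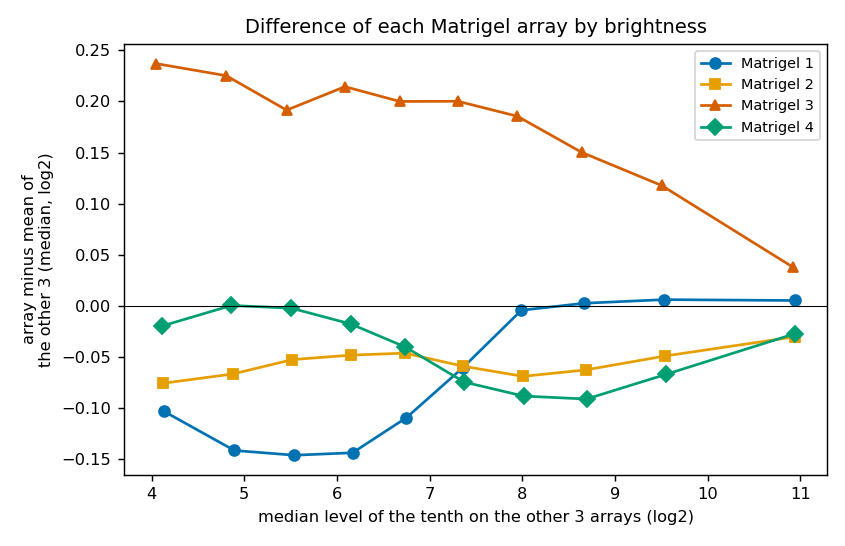
Median difference (log2) of each Matrigel array from the mean of the other 3, in 10 equal groups of probe sets ordered by their level on the other 3 arrays. Matrigel 3 lies above 0 in every group, from 0.24 in the dimmest to 0.04 in the brightest.

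The genes that set Matrigel 3 apart by the most were of several kinds. The variable gene Igkv6-20 was higher there by 2.63 than the mean of the other 3, Slfn3 of the Schlafen family by 2.20, and the heat shock gene Hspa1b by 2.14. Slfn3 read 4.82, 5.28, 7.21 and 4.94, so it lay above the reference level on Matrigel 3 alone. Hspa1b read 5.94, 6.32, 8.13 and 5.70, likewise. Among those lower on Matrigel 3, Cpt1a, which imports fatty acids into mitochondria, read 9.56, 9.50, 8.06 and 9.45. Cflar, an inhibitor of caspase 8, read 9.91, 9.94, 8.29 and 9.81. Thumpd1, of tRNA acetylation, read 10.26, 9.66, 8.23 and 9.85. For Cpt1a a further probe set read 9.53, 9.31, 8.59 and 9.30, and the dimmest read 7.18, 6.83, 7.71 and 7.01, so its probe sets disagreed on the direction.

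Without Matrigel 3, the largest SDs belonged to genes of several kinds. AI506816, an unnamed expressed sequence, read 8.81, 5.08, 8.81 and 7.17. Padi2, a protein deiminase, read 8.78, 10.49, 8.75 and 8.55, high on Matrigel 2 only. Stfa3, a stefin of granulocytes, read 9.26, 8.58, 7.64 and 7.69, high on Matrigel 1. Ighg3, Igha, Ear3, Prg3 and Klrk1 were also among the 12 largest, so these 5 genes differed among Matrigel 1, 2 and 4 as well.

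**Figure D4:**
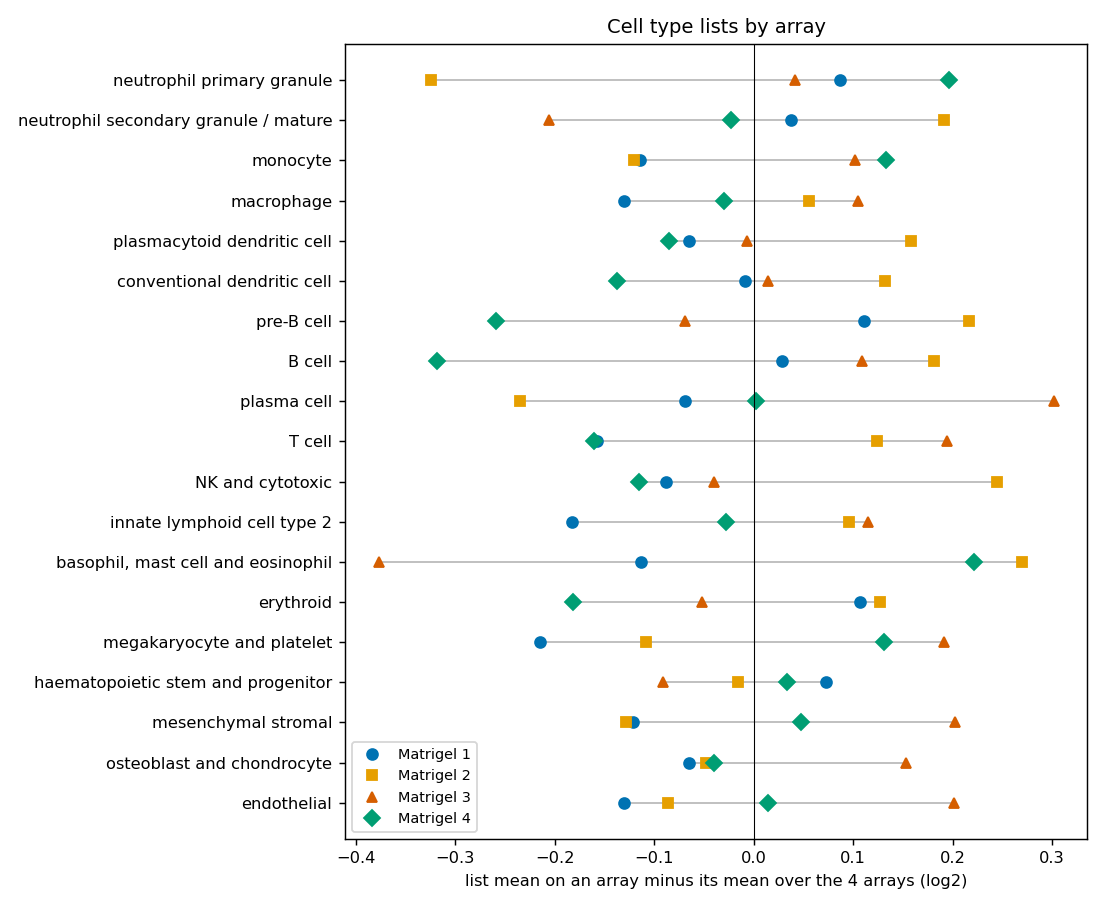
Mean level of the measured genes of each cell type list on each Matrigel array, minus the mean of that list over the 4 arrays (log2). Matrigel 2 is lowest for primary granule genes and highest for secondary granule and NK genes, and Matrigel 4 is lowest for B cell genes. Matrigel 3 is highest for several lists, plasma cell and stromal genes among them, and lowest for basophil, mast cell and eosinophil genes. These means keep the level of the array, and the low-signal reference list was also highest on Matrigel 3, at 5.78. By median percentile the stromal list was highest on Matrigel 4, at 28.9 against 27.5 on Matrigel 3.

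Finally, the tumour-free arrays were set against the 10 tumour arrays. With limma over 22626 probe sets, 0 (0%) were called at an adjusted p under 0.05, and the smallest adjusted p was 0.765. At an unadjusted p under 0.05 there were 1355 (5.99%), with 967 (4.27%) higher and 388 (1.71%) lower in Matrigel, where 1131 would pass at that rate. That split depended on scaling, with 657 higher and 741 lower after quantile normalization and 472 and 959 after centring on the median. Without Matrigel 3 the count was 530, with 292 higher and 238 lower. No alternative analysis by a tool other than limma was run.

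The gene with the smallest p was Slc25a20, the mitochondrial carnitine carrier, with a mean of 9.54 ± 0.18 (SD, n = 4) against 9.90 and 9.89 in the tumour groups (n = 5 each), a difference of -0.36 (SE 0.07, limma adjusted p = 0.765). It was lower on each Matrigel array than on any tumour array. Sox4, a factor of early lymphocytes, had a mean of 9.21 ± 0.26 against 8.68 and 8.77, a difference of 0.49 (SE 0.13). Ifi202b, an interferon-inducible DNA sensor, had a mean of 10.98 ± 0.49 against 10.12 and 9.90, a difference of 0.97 (SE 0.24). The Matrigel and tumour arrays overlapped in both Sox4 and Ifi202b. The limma adjusted p of Sox4 and Ifi202b was also 0.765. Instigator 4 stood apart in its control probe sets, with a 5' minus 3' value of -3.41 for beta-actin, against -0.81 to -0.51 on the other 13 arrays, and of -4.03 for Gapdh, against -1.16 to -0.73. Without that array, 1 probe set passed, a dimmer one of Scd2, a fatty acid desaturase, with a difference of 0.70 and a limma adjusted p of 0.0122. It read 9.13, 9.11, 9.46 and 8.99 on the Matrigel arrays, 8.33 to 8.61 on 9 tumour arrays and 6.35 on Instigator 4. Scd2 was named after its values were seen.

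Marker lists are given beside all genes, whose median difference was 0.03 with 58% higher and 42% lower in Matrigel, and 0 of the list members were called. That background share depended on Matrigel 3 and on scaling, with 44.1% higher without Matrigel 3, 45.4% after quantile normalization and 37.8% after centring on the median. The median of Matrigel minus tumour was 0.47 for plasmacytoid dendritic cell genes, of which 12 of 15 were higher in Matrigel. Instigator 4 was the lowest tumour array in 5 of these 15 genes (33.3%, beside 25% of all genes), among them Bst2 at 7.83 and Spib at 9.77. Without Instigator 4 the median was 0.39, with 14 of 15 higher. The median was 0.34 for B cell genes, 14 of 15 being higher. For secondary granule genes it was -0.24, 16 of 17 being lower, or -0.16 and again 16 of 17 without Matrigel 3. For primary granule genes it was 0.01, and -0.02 without Instigator 4 or without Matrigel 3. For eosinophil, basophil and mast cell genes it was -0.25, 13 of 15 being lower, and -0.05 with 9 of 15 lower without Matrigel 3. The part of the RNA quality of Instigator 4 in these medians was not tested beyond leaving that array out. Genes of 1 list vary together between arrays, and these medians carry no test.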

How the data were processed

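Values for 22690 probe sets and 14 arrays were deposited by the authors as intensity on a linear scale. They come from RMA (affy, R 2.11.0), per the submitters' processing notes, with options not stated there. The method subtracts background, makes the arrays comparable by normalization and reduces each probe set to 1 value. The labels' protocols name Qiagen RNA extraction and the NuGen Ovation biotin system. Log2 was taken with no further normalization. The number of arrays limits the precision.

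Gene names came from the platform annotation, in which 20380 of 22626 probe sets carry 1 symbol, 691 several and 1555 none. Of those with 1 symbol, 20359 were found in the RefSeq table of GRCm38.p6. Where a gene had several probe sets, the brightest by the mean of all 14 arrays was used. The members and the 27 gene lists were chosen with earlier results of these data known. Of 469 listed genes, 408 were measured. The naming rule took Kit, Cd34 and Grn, the 25 brightest genes, the 5 brightest of each list and its defining members below the reference level, the 12 largest SDs with and without Matrigel 3, the 10 largest differences of Matrigel 3 per direction and the 5 smallest limma p per direction. Other list members, Iglv1 and Scd2 were named after their values were seen.

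Matrigel was compared with the mean of the tumour groups in 1 limma 3.58.1 fit of all 14 arrays (lmFit, contrasts.fit, eBayes, R 4.3.3), with Benjamini-Hochberg adjustment over all probe sets. On simulated data for this comparison with 22626 probe sets, the fit called 68% of probe sets changed by 0.5, 92% at 1, 98% at 1.5 and 100% at 2, with 9 false calls. The simulated noise was independent between probe sets and held no shift shared by a whole array. The rates therefore check the code and do not give the power of the fit on these arrays. Alternatives changed the scaling, the reference level, the probe set per gene, the filter, the variance model, the arrays included and the replicate number as a block. Python 3.11.15 with numpy 2.4.6, pandas 2.3.3 and matplotlib 3.10.9 was used.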

Additional observations from a re-analysis of the deposited data

Results flagged for a closer look

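In groups of 4 or 5 arrays, 155 values were checked for 1 array far from the rest by Dixon's gap, which chance passes in about 1 of 20 groups. It passed in 18, of which 8 fell on Matrigel 3, 7 on Matrigel 2 and 0 on Matrigel 1 or 4. Many of the genes checked were named for a large SD or a large difference of Matrigel 3, among them Cpt1a, Cflar, Igkv4-72 and Padi2, and many share an array or a list, so these counts cannot be read against that rate.

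On Matrigel 3 the median level over probe sets was 7.18, against 6.98 to 6.99. The median percentile of the osteoblast and chondrocyte list was 23.3 there, against 28.5 to 29.4. Igll1 was 10.75, Jchain 12.86 and Igkv4-72 10.65 on Matrigel 3, each above the other 3 arrays. Hdc was 8.42, Cpt1a 8.06 and Cflar 8.29, each below them.

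On Matrigel 2 the median percentile of the NK and cytotoxic list was 83.5, against 73.8 to 74.3. Ctsg was 12.17 and Prtn3 11.36 on that array, both below the others. Igfbp4, an inhibitor of insulin-like growth factors, was 9.06, against 9.73 to 9.85. Spib was 11.71, Padi2 10.49 and Cd2, a T and NK cell adhesion molecule, 10.56, all above the others.

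Among the tumour arrays, Ifi202b was 10.82 on Non-instigator 5, against 9.50 to 9.84 on the rest of its group. Slc25a20 was 10.04 on Non-instigator 3, against 9.83 to 9.88. Lasp1, an actin-binding protein, was 11.65 on Instigator 4, against 11.07 to 11.16.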

How the results depend on the processing

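Leaving out 1 array at a time gave a median SD of 0.119 to 0.206, lowest without Matrigel 3, where it was 0.196 with all arrays. It gave median percentiles of 43.5 to 47.4 for macrophage, 50.2 to 51.9 for interferon and 52.0 to 54.1 for immediate early genes, and 1 to 2 endothelial genes above the reference level. With all probe sets of a gene averaged in place of the brightest, median percentiles became 98.7 (primary granule), 95.3 (monocyte), 52.6 (macrophage), 82.6 (plasmacytoid dendritic), 78.9 (MHC class II), 69.9 (pre-B), 82.0 (B), 80.1 (plasma), 83.9 (NK), 38.3 (innate lymphoid), 76.6 (erythroid), 31.2 (stem and progenitor), 22.1 (mesenchymal), 24.3 (osteoblast), 39.8 (secreted factors), 57.6 (interferon), 59.1 (immediate early) and 4.24 (sex-linked), with 2 mesenchymal and 2 endothelial genes above the reference level. With the reference at the 90th percentile, 5 megakaryocyte, 2 osteoblast and 2 endothelial genes passed. With the reference at its highest gene, 2988 genes passed, with 0 macrophage, conventional dendritic, megakaryocyte, osteoblast and endothelial genes, 1 innate lymphoid, 1 stem and progenitor, 1 mesenchymal, 2 interferon, 3 MHC class II, 3 basophil, 3 immediate early, 4 secreted factor, 5 T cell, 6 homing, 7 erythroid, 8 B cell, 8 plasma cell and 8 NK genes. That highest gene was Prm1, by its brightest probe set alone. The higher level leaves fewer genes by construction, and for the other moves the cause was not tested.

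The fit of Matrigel against tumour called 0 to 1 probe sets when arrays were left out in turn, with 1 without Instigator 4 and 1 without Instigator 4 and Matrigel 3 together. With the replicate number as a block it called 0, with 1728 at an unadjusted p under 0.05. Arrays with the same number correlated at -0.201 to 0.269 in 13 pairs, of which 5 passed 0.1, so the number was not taken to pair them. The 5 genes that led by p in each direction kept that direction and stayed uncalled by limma under each of the 22 alternatives in which their probe set was tested, 218 values in all. These genes were picked by p from the same arrays that the alternatives reuse, so a kept direction is no independent check. List medians of Matrigel minus tumour were recomputed without Instigator 4, without Matrigel 3, without both and under other scalings, an alternative chosen after seeing the data. Of these, 123 of 130 moved by less than the SD of the list between Matrigel arrays. That SD is wide beside small medians, so a median could change sign and still be counted there. For example, without Matrigel 3 the median went from 0.06 to -0.02 for homing receptors and from -0.06 to 0.03 for erythroid genes.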
